A study of Mus musculus with 15 samples.

Results

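The genes described here are 10 genes of cartilage and of its embryonic source, the sclerotome: Pax1, Pax9, Sox9, Sox5, Sox6, Col2a1, Col9a1, Col11a1, Acan and Matn4. They were taken by name from a list and are 10 of the 30534 features in the transcript tables, and every one of them had at least 1 count in some library. Transcripts were counted in sections of frozen mouse embryos by barcoding in tissue, in which crossing microfluidic channels write a pair of barcodes into each of up to 50 by 50 pixels. The 11 transcript libraries fall into 6 groups by embryonic day (E) and pixel width: E10 at 10 µm (2 libraries), 25 µm (1) and 50 µm (3), E11 at 10 µm (2) and 25 µm (2), and E12 at 50 µm (1). Antibody tags were counted in 4 of the E10 sections. The labels give the tissue as embryo, with no strain, treatment, sex, embryo number or body region, so stage, pixel width, region and embryo cannot be told apart in any comparison between groups, and p-values measure only the spread between these libraries.

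In the trunk of the embryo, the ventral part of each somite becomes sclerotome under signals from the notochord and floor plate, chiefly Sonic hedgehog, and goes on to form the vertebrae and ribs. Pax1 and Pax9 are paired-box transcription factors of the sclerotome, and Pax9 is also made in the pharyngeal pouches. Sox9 is the transcription factor that commits mesenchyme to cartilage, and Sox5 and Sox6 work with it to switch on the matrix genes. Type II collagen (Col2a1) forms the main fibrils of cartilage, types IX and XI (Col9a1, Col11a1) coat and seed them, aggrecan (Acan) is the large water-binding proteoglycan between them, and matrilin 4 (Matn4) is an adaptor protein of the matrix. The notochord, the rod under the neural tube that is marked by the transcription factor T (Brachyury), has a sheath built from several of the same matrix proteins, and Sox9, Sox5 and Sox6 are also made by neural progenitors and the notochord.

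A pixel counted as tissue when its total reached 0.1 times the 95th percentile over its library's pixels. There were 829 to 2271 such pixels per library, with 1.56 to 12.0 M counts in all (M, counts divided by 1e6) and a median of 843.5 to 11332 counts per pixel. Levels are given as CPM (a gene's counts over tissue pixels, set to a sum of 1e6 for each library), which compare libraries for 1 gene and, not being per length, do not compare genes. A lower level can mean fewer cells that make a transcript or less of it in each cell, which cannot be told apart in these sums. Of the 18233 genes that passed the filter on low counts, all 10 genes were among those tested. Called means an adjusted p at or under 0.05 in edgeR's quasi-likelihood test, adjusted by Benjamini-Hochberg over all genes tested, and values after log2 fold changes are approximate standard errors (SE).

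The order of appearance split the genes in 3. Sox9, Sox5, Sox6, Col2a1, Col9a1 and Col11a1 were counted in every library, from E10 on. Pax1 and Pax9 were counted at E10, but unevenly between sections. Acan and Matn4 were nearly absent at E10, Acan was higher in the E11 sections of 25 µm pixels, and both were highest in the E12 section. The stage contrasts called Acan and Matn4 at E12, and Sox9 at E11 in the 10 µm sections alone, among the 10 genes.

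Acan and Matn4 are the members whose level changed most with stage, and their promoters are shown for that reason. The windows are the 250 bases before the RefSeq start (build GRCm38.p6, 5′ to 3′ on the gene's strand), and capitals mark GGGCGG on either strand (written CCGCCC when it lies on the other strand), the core of a common GC-box. For Acan the window is chr7:79052976-79053225 on the plus strand, and for Matn4, at the more upstream of its 2 starts, chr2:164405161-164405410 on the minus strand.
Acan: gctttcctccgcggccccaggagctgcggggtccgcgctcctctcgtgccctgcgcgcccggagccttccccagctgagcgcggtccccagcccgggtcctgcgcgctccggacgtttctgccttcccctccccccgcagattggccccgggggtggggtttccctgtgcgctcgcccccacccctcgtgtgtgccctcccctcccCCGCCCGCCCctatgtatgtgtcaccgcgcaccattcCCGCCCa
Matn4: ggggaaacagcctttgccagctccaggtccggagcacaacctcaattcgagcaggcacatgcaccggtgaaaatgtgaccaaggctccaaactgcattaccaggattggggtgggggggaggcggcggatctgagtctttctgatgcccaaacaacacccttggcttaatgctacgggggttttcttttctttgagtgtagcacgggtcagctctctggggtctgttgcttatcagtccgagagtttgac
The Acan window holds 3 copies of GGGCGG, of which 2 overlap, and the Matn4 window shown holds none, while the window of a second Matn4 start holds 1. None of these windows holds ACAAAG or ACAATG on either strand, 2 forms of the core that SOX proteins bind. By comparison, GGGCGG stood in 32.7% of the 32851 promoters of the table over the same 250 bases, and ACAAAG or ACAATG in 25.2%. Promoters were found for 8 of the 10 genes, and windows of Sox5, Sox6 and Pax9 hold at least 1 of these SOX cores. A match is a run of letters and not a site of binding.

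Pax1 (build GRCm38, chromosome 2, 147361925 to 147393295, plus strand) was at 2.17 and 0 CPM in the E10 10 µm replicates, 1.28 in E10 25 µm, 5.99, 11.3 and 4.04 in E10 50 µm, 0 and 18.2 in E11 10 µm, 18.2 and 14.5 in E11 25 µm and 36.2 in E12. At E10 its values at 10 and 25 µm lay under those at 50 µm, and the E11 10 µm replicates lay at opposite ends of the E11 values. In the 2 libraries listed at 0, E10 10 µm replicate 2 and E11 10 µm replicate 1, the deposited tables held no Pax1 column. A count of 0 there allows up to 0.566 and 1.17 CPM (3 counts), for counting error only. The log2 fold change from E10 to E11, averaged over the widths of 10 and 25 µm, was 3.36 (SE 1.51, adjusted p = 0.237), and became -1.18 without replicate 2 of E11 10 µm. At 50 µm, E12 against E10 gave 2.28 (SE 1.37, adjusted p = 0.526), with the E12 value above all 3 E10 values.

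Pax9 (chromosome 12, 56691767 to 56712822, plus strand) did not follow Pax1 between sections. Its level was 46.8 and 1.51 CPM in the E10 10 µm replicates, 28.8 in E10 25 µm, 8.90, 24.4 and 5.55 in E10 50 µm, 4.67 and 2.92 in E11 10 µm, 5.53 and 11.5 in E11 25 µm and 17.7 in E12. The highest and the lowest library are replicates of the same group, so the spread within E10 10 µm covered every other group. No contrast called it.

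Among the SOX genes, Sox9 (chromosome 11, 112782224 to 112787760, plus strand) was at 188 and 134 CPM in E10 10 µm, 191 in E10 25 µm, 162, 154 and 217 in E10 50 µm, 66.5 and 27.7 in E11 10 µm, 102 and 172 in E11 25 µm and 163 in E12. Both E11 10 µm libraries lay under every other library, while E11 25 µm overlapped E10 50 µm. Sox9 fell at 10 µm by 1.81 (SE 0.40, adjusted p = 0.0297), and 0.773% of all tested genes were called lower in that contrast. This call was lost on leaving out either E10 10 µm library, or E11 10 µm replicate 2, and the highest adjusted p over 17 alternatives was 0.196. The E11 10 µm libraries held 2.57 and 2.74 M counts and the E10 10 µm libraries 12.0 and 5.30 M, and the part of depth in the Sox9 call was not tested. In the same contrast 2 of 7 neuron genes were called lower, Elavl4 (-2.31) and Dcx (-1.55), calls lost without any 1 of the E10 10 µm libraries, E10 50 µm replicate 1 or E11 10 µm replicate 2 (Dcx also without 3 other libraries). Their list median was -1.33, and the 7 neural progenitor genes had a median of -0.90, against -0.01 for all genes. The part of neural tissue in the Sox9 value was not tested either.

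Sox5 (chromosome 6, 143828425 to 144781977, minus strand) ranged from 36.7 to 82.1 CPM over the 6 E10 libraries, from 10.9 to 35 over the 4 E11 libraries, and was 55.5 in E12. The E11 values lay under all E10 values. Its mean change from E10 to E11 was -1.34 (SE 0.41, adjusted p = 0.0885), which misses the threshold, and Sox9 stood at -1.04 (SE 0.30, adjusted p = 0.0746) in the same contrast. Sox6 (chromosome 7, 115470872 to 116038796, minus strand) went from 28.8 to 71.3 CPM at E10, from 12.8 to 48.2 at E11, and was 78.9 in E12, and no contrast called it (mean change -0.58, SE 0.38, adjusted p = 0.377). The mean E11 contrast called 0 of the 10 genes against 3.6% of all tested genes in either direction, with 4217 genes at an unadjusted p under 0.05, among them Sox9, Sox5, Acan and Col11a1. DESeq2 called 3 of these, Sox9 and Sox5 lower and Acan higher.

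Of the collagens, Col2a1 (chromosome 15, 97975602 to 98004695, minus strand) was at 402 and 269 CPM in E10 10 µm, 368 in E10 25 µm, 257, 203 and 268 in E10 50 µm, 357 and 75.1 in E11 10 µm, 428 and 247 in E11 25 µm and 582 in E12. It was high in every section but E11 10 µm replicate 2, and E12 was highest. Col11a1 (chromosome 3, 114030540 to 114220718, plus strand) was 64.4 to 171 CPM at E10, 33.2 to 112 at E11 and 285 in E12. Col9a1 (chromosome 1, 24177610 to 24252684, plus strand) was 18.4 to 67.1 CPM at E10, 13.5 to 44.0 at E11 and 90.8 in E12. All 3 collagens were highest in the E12 section, yet none was called against E10 at 50 µm: 1.23 for Col2a1 (SE 0.60, adjusted p = 0.384), 1.71 for Col9a1 (SE 0.53, adjusted p = 0.14) and 1.57 for Col11a1 (SE 0.49, adjusted p = 0.138). Without the filter on low counts all 3 were called higher.

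Acan (chromosome 7, 79053483 to 79115099, plus strand) was at 0 and 0 CPM in E10 10 µm, 0.64 in E10 25 µm, 0.35, 0.36 and 0.38 in E10 50 µm, 0 and 0.73 in E11 10 µm, 8.88 and 4.30 in E11 25 µm and 20.6 in E12. These rest on 0 to 4 counts in each E10 library, 0 and 2 in E11 10 µm, 45 and 33 in E11 25 µm and 134 in E12. Both E11 25 µm libraries and the E12 library lay above all others. E12 against E10 at 50 µm gave 5.72 (SE 0.72, adjusted p = 0.00203), a ratio of summed levels of 56.9 with a 95% counting interval of 30.8 to 117. At E11 the 10 µm sections were lower than the 25 µm sections by a log2 fold change of -4.18 (SE 0.94, adjusted p = 0.0453), where 0.455% of all tested genes were called lower. As 2 counts stand against 78 there, the ratio of 25 over 10 µm is 16.3 with a counting interval of 4.35 to 137. Acan passed the filter on low counts only through the E11 25 µm and E12 libraries, where it is high. The share of 0.455% is thus no support for it. This second call was lost in 10 of 18 alternatives, among them leaving out E11 25 µm replicate 1, E11 10 µm replicate 1 or any 1 of the E10 50 µm libraries, with adjusted p up to 0.483.

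Matn4 (chromosome 2, 164389393 to 164405160, minus strand) was at 0.33 and 0 CPM in E10 10 µm, 0 in E10 25 µm, 0.53, 0.24 and 0 in E10 50 µm, 0.39 and 0 in E11 10 µm, 2.37 and 1.56 in E11 25 µm and 42.3 in E12. No E10 library held more than 6 counts, each E11 25 µm library held 12, and E12 held 275. E12 stood far above all others, with a log2 fold change of 7.21 against E10 at 50 µm (SE 0.86, adjusted p = 0.00144) and a ratio of 161 (counting interval 80.4 to 376). Acan and Matn4 were thus 2 of the 10 genes called higher at E12, against 1.93% of all tested genes, and both were called in all 16 alternatives. Both genes passed the filter on low counts only through the E11 25 µm and E12 libraries, where they are high. The comparison with 1.93% is thus no support for these 2 genes. The spread of the lone E12 library was assumed to be that of the other groups.

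**Figure D1:**
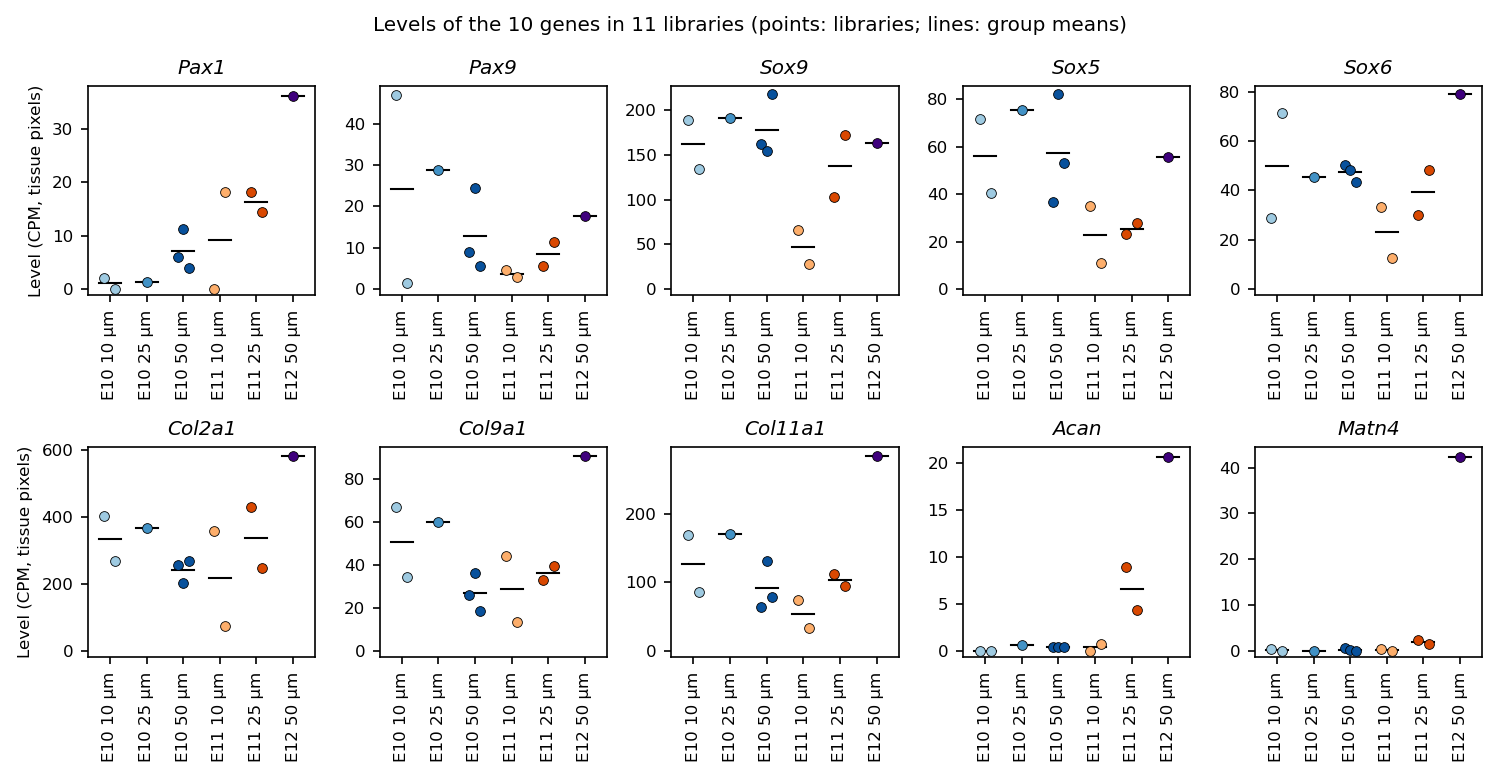
Level of each gene in CPM over tissue pixels (vertical axis, linear, separate for each gene) in the 6 groups of stage and pixel width. Points are libraries and lines are group means. Acan and Matn4 sit near 0 in all E10 libraries and reach 20.6 and 42.3 CPM in E12, while Sox9 is lowest in the 2 E11 10 µm libraries at 66.5 and 27.7 CPM.

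The remaining contrasts called none of the 10 genes. E11 against E10 at 25 µm called 0, against 0.455% of tested genes in either direction, and 2516 genes had an unadjusted p under 0.05. Between pixel widths at E10, 10 against 50 µm called 0 of the 10, with 0.11% of genes called. The difference between the 2 stage changes, 25 minus 10 µm, also called 0, with 0.137% of genes called. At an unadjusted p under 0.05 they held 1978 and 1540 genes. DESeq2 called 0 of the 10 in each of these 3 contrasts as well.

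Other genes of the same programme gave a like order at E12. Of 13 cartilage matrix genes that are not members, 10 were tested and 4 were called higher at E12 than at E10 in 50 µm pixels, with none lower: the type IX chains Col9a2 (2.83, SE 0.54, adjusted p = 0.0205) and Col9a3 (3.94, SE 0.47, adjusted p = 0.00144), the type XI chain Col11a2 (3.39, SE 0.50, adjusted p = 0.00502) and matrilin 1 (Matn1, 5.62, SE 1.19, adjusted p = 0.038). Their median log2 fold change was 2.68, against -0.04 for all tested genes. Matn1 was counted 38 times in E12, 3 times in E10 50 µm and 0 times in E11 25 µm. Of 9 tested genes of hypertrophic cartilage and bone, 1 was called higher, the bone transcription factor Runx2 (5.02, SE 0.63, adjusted p = 0.00181). Of 10 tested genes of sclerotome and somite, 1 was called higher, the tendon factor Scx (2.54, SE 0.58, adjusted p = 0.0417), with a list median of 0.88. Gdf5, a signal of the joint-forming zones, rose by 4.04 (SE 0.83, adjusted p = 0.0274), and Trps1, a zinc finger protein of the growth plate, by 1.56 (SE 0.35, adjusted p = 0.0409). The calls of Col9a3, Col11a2 and Runx2 were kept in all 16 alternatives. Those of Col9a2, Matn1, Scx, Gdf5 and Trps1 were lost on leaving out either E11 25 µm library or E10 50 µm replicate 2 or 3 and, but for Col9a2, replicate 1, with adjusted p up to 0.392 (Matn1).

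Lists of other tissues differed at E12 too, and their part in the cartilage values was not tested. In skeletal muscle, 3 of 6 tested genes were called higher, among them Myog at 5.81 (SE 0.72, adjusted p = 0.00168). In general mesenchyme 3 of 8 were called higher, for instance Col1a1 at 2.56 (SE 0.46, adjusted p = 0.0155), and in red cells 5 of 9 were called higher and 1 lower. The 7 liver genes had a list median of 10.4, against -0.04 for all genes, and Ahsg alone was called higher. The 7 neural progenitor and 7 neuron genes had list medians of -2.76 and -1.58 against -0.04 for all genes, and no adjusted p under the threshold (edgeR). At E11 the mean contrast called 2 of 10 sclerotome and somite genes, both lower: the forkhead factors Foxc1 (-1.45, SE 0.27, adjusted p = 0.0162) and Foxc2 (-1.28, SE 0.25, adjusted p = 0.0174), calls that were lost without E11 25 µm replicate 1 (Foxc2 also without E10 10 µm replicate 1). It also called 3 of 7 neuron genes lower (list median -1.20). It called none of the 10 cartilage matrix genes, whose median was -0.14 against 0.05 for all genes. T was called higher (5.92, SE 1.12, adjusted p = 0.0162; not called without E11 10 or 25 µm replicate 1), with 96 and 106 counts in the E11 25 µm sections, 4 and 1 in E11 10 µm, 0 to 12 in each E10 library and 6 in E12. At 25 µm T was at least 8.26-fold higher at E11 than in the E10 library, which held no count of it (floor of 3 counts).

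To see where the genes lie within a section, tissue pixels were ranked by the share of Col2a1 in the 3 by 3 window around them. The top 5%, called Col2a1-high, were compared with all other tissue pixels of the same library, with 1 pair of summed counts per library and the library as a block. Col2a1 itself was left out, and 13334 genes were tested. Col2a1-high pixels were shallower than the rest in all libraries but E12 (medians of 505.5 to 5965 against 851 to 11563.5 counts per pixel in those 10), and the part of depth was not tested. They held 8.79% to 42.0% of all Col2a1 counts.

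In Col2a1-high pixels 7 of the 9 other genes were called higher, against 2.28% of all tested genes. Acan and Matn4 are among these 7, but fell out when the low-count filter was set by pixel class. The comparison with 2.28% is thus no support for these 2 genes. Acan was higher by 5.01 (SE 0.69, adjusted p = 5.65e-05) and Matn4 by 3.64 (SE 0.51, adjusted p = 2.05e-08). Pax1 was higher by 2.94 (SE 0.27, adjusted p = 2.2e-16) and Pax9 by 1.54 (SE 0.32, adjusted p = 0.00135). Col9a1 was higher by 2.29 (SE 0.50, adjusted p = 0.0207), Col11a1 by 2.10 (SE 0.51, adjusted p = 0.037) and Sox9 by 1.12 (SE 0.26, adjusted p = 0.028). Sox5 (0.68, SE 0.37, adjusted p = 0.384) and Sox6 (0.69, SE 0.33, adjusted p = 0.306) were not called. Pax1 was called in all 23 alternatives, and Acan and Matn4 in the 21 that tested them. With the low-count filter set by pixel class, or with E10 alone, Acan and Matn4 were filtered out, so their tests rest on the filter set by the model. Sox9 lost its call with no filter on low counts and with a tissue minimum of 0.2, and Col11a1 with no filter. Sox9 also lost its call without either E11 25 µm library or E10 50 µm replicate 1 or 2, Col9a1 without E11 25 µm replicate 1 or E10 50 µm replicate 1 or 3, and Col11a1 without any 1 of the E10 50 µm, E11 25 µm or E12 libraries or E11 10 µm replicate 1, with adjusted p up to 0.0788, 0.179 and 0.0878 over all alternatives.

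The ratios per library show how uneven this is. For Pax1, CPM in Col2a1-high over CPM elsewhere was 2.57 in E10 10 µm replicate 1, 0 in E10 25 µm (which held 2 counts in all), 13.8, 17.9 and 12.9 in E10 50 µm, 7.13 in E11 10 µm replicate 2, 5.47 and 7.58 in E11 25 µm and 5.57 in E12. It was thus largest in the 50 µm sections of E10. For Sox9 the ratio was 1.23 and 1.1 in E10 10 µm, 1.77 in E10 25 µm, 2.19, 2.20 and 1.55 in E10 50 µm, 0.621 and 3.75 in E11 10 µm, 4.75 and 3.66 in E11 25 µm and 5.48 in E12. All E10 ratios of Sox9 lay under those of E11 25 µm and E12. Col11a1 was at 25.5 and 22.9 in E11 25 µm and 8.44 in E12, against 0.637 to 4.30 elsewhere. Acan was at 198 and 165 in E11 25 µm, where 86.7% and 81.8% of its counts lay in these 5% of pixels, and at 20.7 in E12 (53.7% of its counts).

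**Figure D2:**
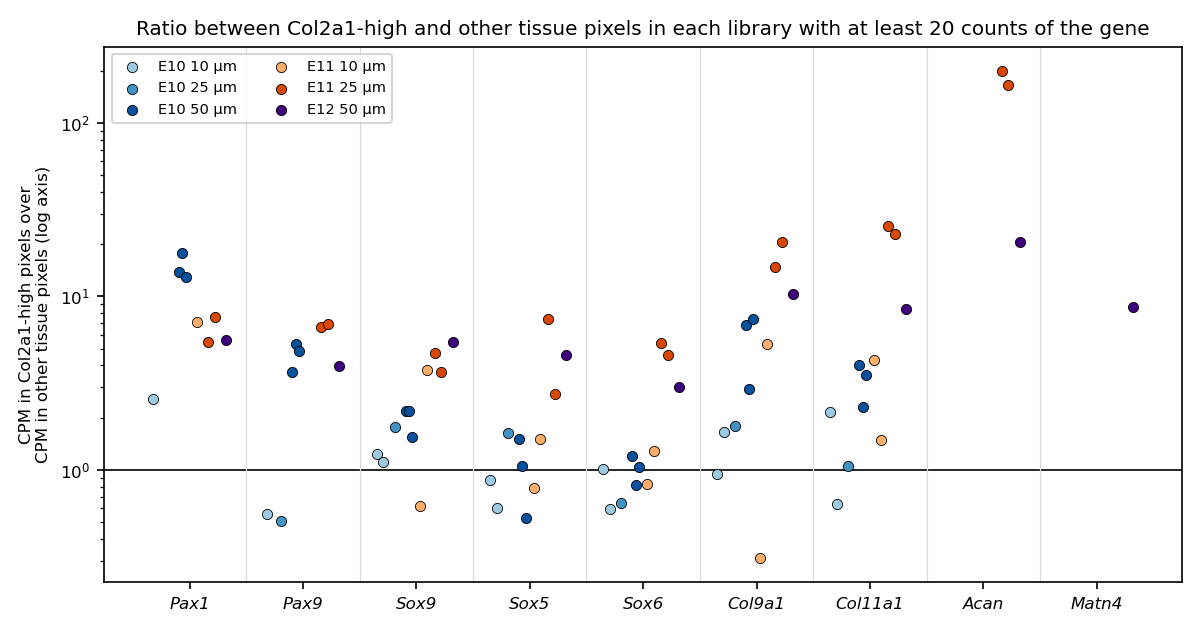
Ratio of CPM in Col2a1-high pixels to CPM in the other tissue pixels (vertical axis, log scale) for the other 9 genes. Each point is a library with at least 20 counts of the gene, coloured by group, and a ratio of 0 is not drawn. Sox5 and Sox6 lie around a ratio of 1 in E10 libraries and above 2 in E11 25 µm and E12, and Acan reaches 198.

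Within E10 alone (6 libraries, 11814 genes tested, a comparison added after seeing the data), 2 genes were called higher, Pax1 (3.46, SE 0.46, adjusted p = 3.88e-11) and Sox9 (0.69, SE 0.12, adjusted p = 1.53e-06), against 2.51% of genes. Pax9 missed the threshold (1.14, SE 0.36, adjusted p = 0.0548), as did Col11a1 (1.15, SE 0.30, adjusted p = 0.0878) and Col9a1 (1.52, SE 0.48, adjusted p = 0.179). Sox5 (-0.06, SE 0.20) and Sox6 (-0.16, SE 0.22) were near 0, while Acan and Matn4 had too few counts at E10 to be tested. The difference of the Col2a1-high change between stages, E11 minus E10, was called higher for 4 genes against 0.383% of 15137 tested. These were Sox6 (1.93, SE 0.37, adjusted p = 1.02e-04), Sox5 (1.66, SE 0.39, adjusted p = 0.00523), Sox9 (0.97, SE 0.23, adjusted p = 0.00523) and Acan (5.62, SE 1.36, adjusted p = 0.00831). For Acan, the E10 side rests on 1 count in Col2a1-high pixels, so this value is no measure of size. Acan was also filtered out of this comparison with the filter set by pixel class, so the share of 0.383% is no support for Acan. No call among the 4 was kept under DESeq2 or with the top 2.5% of pixels. Without E11 25 µm replicate 1 only Sox6 was called, and without replicate 2 only Sox5.

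Genes outside the 10 that went with Col2a1-high pixels were largely of the same kind. Of 7 tested cartilage matrix genes that are not members, 5 were called higher, with a median of 2.02 against -0.09 for all genes tested: Col9a2 (2.53, SE 0.38), Col9a3 (2.70, SE 0.42), Col11a2 (3.27, SE 0.77), Lect1 (chondromodulin, 2.02, SE 0.43) and Fmod (fibromodulin, 1.82, SE 0.53). Of 9 sclerotome and somite genes, 3 were called higher, Meox1 (1.56, SE 0.41), Foxc1 (1.40, SE 0.16) and Foxc2 (1.01, SE 0.23). The hedgehog targets Ptch1 (0.95, SE 0.13) and Gli1 (0.96, SE 0.25) were called higher. All 7 neural progenitor genes and all 7 neuron genes were called lower, for instance Pax6 at -2.24 (SE 0.21) and Elavl4 at -1.27 (SE 0.17). Of the notochord and floor plate list 2 of 5 were called higher, T (3.72, SE 0.91) and Foxa1 (1.93, SE 0.49), and of 7 epithelial genes 2, Krt18 (1.70, SE 0.39) and Cldn6 (1.44, SE 0.38). By size of change, the leading gene was Susd5 (4.45, SE 0.54), yet it was higher in Col2a1-high pixels in 3 of 11 libraries and lower in 4. T was higher in 3 and lower in 7. Papss2, an enzyme that supplies sulphate for proteoglycans, was also among the first 10 (2.61, SE 0.46), higher in 8 libraries and lower in 3. Adjusted p-values of the genes named here were 6.08e-11 to 0.042 (edgeR). Col11a2 and Foxa1 lost their call without either E11 25 µm library (Col11a2 also without E12), and Fmod, Krt18, Cldn6 and T were lost in 10, 7, 6 and 4 alternatives, while Foxc1, Col9a2, Col9a3, Ptch1, Pax6, Elavl4 and Papss2 were called in each one that gave them a value.

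The notochord list stood out in the E11 sections of 25 µm pixels. Its summed level in Col2a1-high pixels was 8.25 and 7.19 times that elsewhere there, against 0 to 3.73 in the other 9 libraries. The cartilage matrix list without members was at 15.7 and 15.6 in these 2 sections, at 10.1 in E12 and at 0.42 to 3.22 in the others. The epithelial list was at 10.7 and 7.26 in E11 25 µm and between 0.36 and 6.64 in the others. The layout of Acan and T described next was looked at after these values had been seen.

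At E11, Acan lay along a line that T also marked. In E11 25 µm replicate 1, 29 pixels held Acan and 89.7% of them touched another one, and in replicate 2 it was 21 pixels and 76.2%. Of the Acan counts, 95.6% and 87.9% lay in pixels whose 3 by 3 window held a T count, and such windows made up 14.7% and 16.3% of tissue pixels. The Acan pixels held 51 of the 96 T counts in replicate 1 and 50 of 106 in replicate 2. Shh, the hedgehog ligand, was at 669 and 688 CPM in them against 16 and 20.8. Krt8, a keratin found in the notochord as well as in epithelia, was at 1587 and 632 CPM against 76.6 and 33.9. Foxa2, another notochord and floor plate factor, had no count in them, and neither had the early notochord gene Noto. Matn1 had 0 counts in the tissue of both sections, so its absence from the Acan pixels says nothing about them.

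The same pixels were rich in Col2a1 (5954 and 3553 CPM against 343 and 209 elsewhere) and Col11a1 (2531 and 2211 against 75.3 and 70.6). Sox9 was at 354 and 620 CPM in them against 98.6 and 167. Pax1 was at 13.1 and 22.6 CPM, on 1 and 2 counts, against 18.2 and 14.4 in the rest of the tissue. Pax1 pixels lay at a median distance of 8.2 and 4.2 pixels from the nearest Acan pixel, where tissue pixels as a whole lay at 9.1 and 8.1. Of the Pax1 pixels, 1.5% and 2.4% were Acan pixels themselves. As these pixels were picked by Acan, all values in them are a description.

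In the E12 section Acan was found in 77 of 1535 tissue pixels, 62.3% of which touched another. Of its counts 3.7% lay near T, against 2.5% of tissue pixels. With 6 counts of T in the whole section, T windows were few, so whether the setting of Acan differed from E11 cannot be told. The Acan pixels held 2 of the 6 T counts and none of the 20 Shh counts. They held 88 of the 275 Matn4 counts and 23 of the 38 Matn1 counts. Sox9 was at 598 CPM in them against 134 elsewhere, Col2a1 at 3843 against 364, and Pax1 at 83.6 against 33.0. Here Pax1 pixels lay at a median of 2.0 pixels from Acan, and tissue pixels as a whole at 3.2. The other 9 genes had 1.7% (Pax9) to 6.8% (Pax1) of their counts near T in E12, and 22.8% (Sox5, replicate 2) to 66.7% (Matn4, replicate 1) in E11 25 µm.

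**Figure D3:**
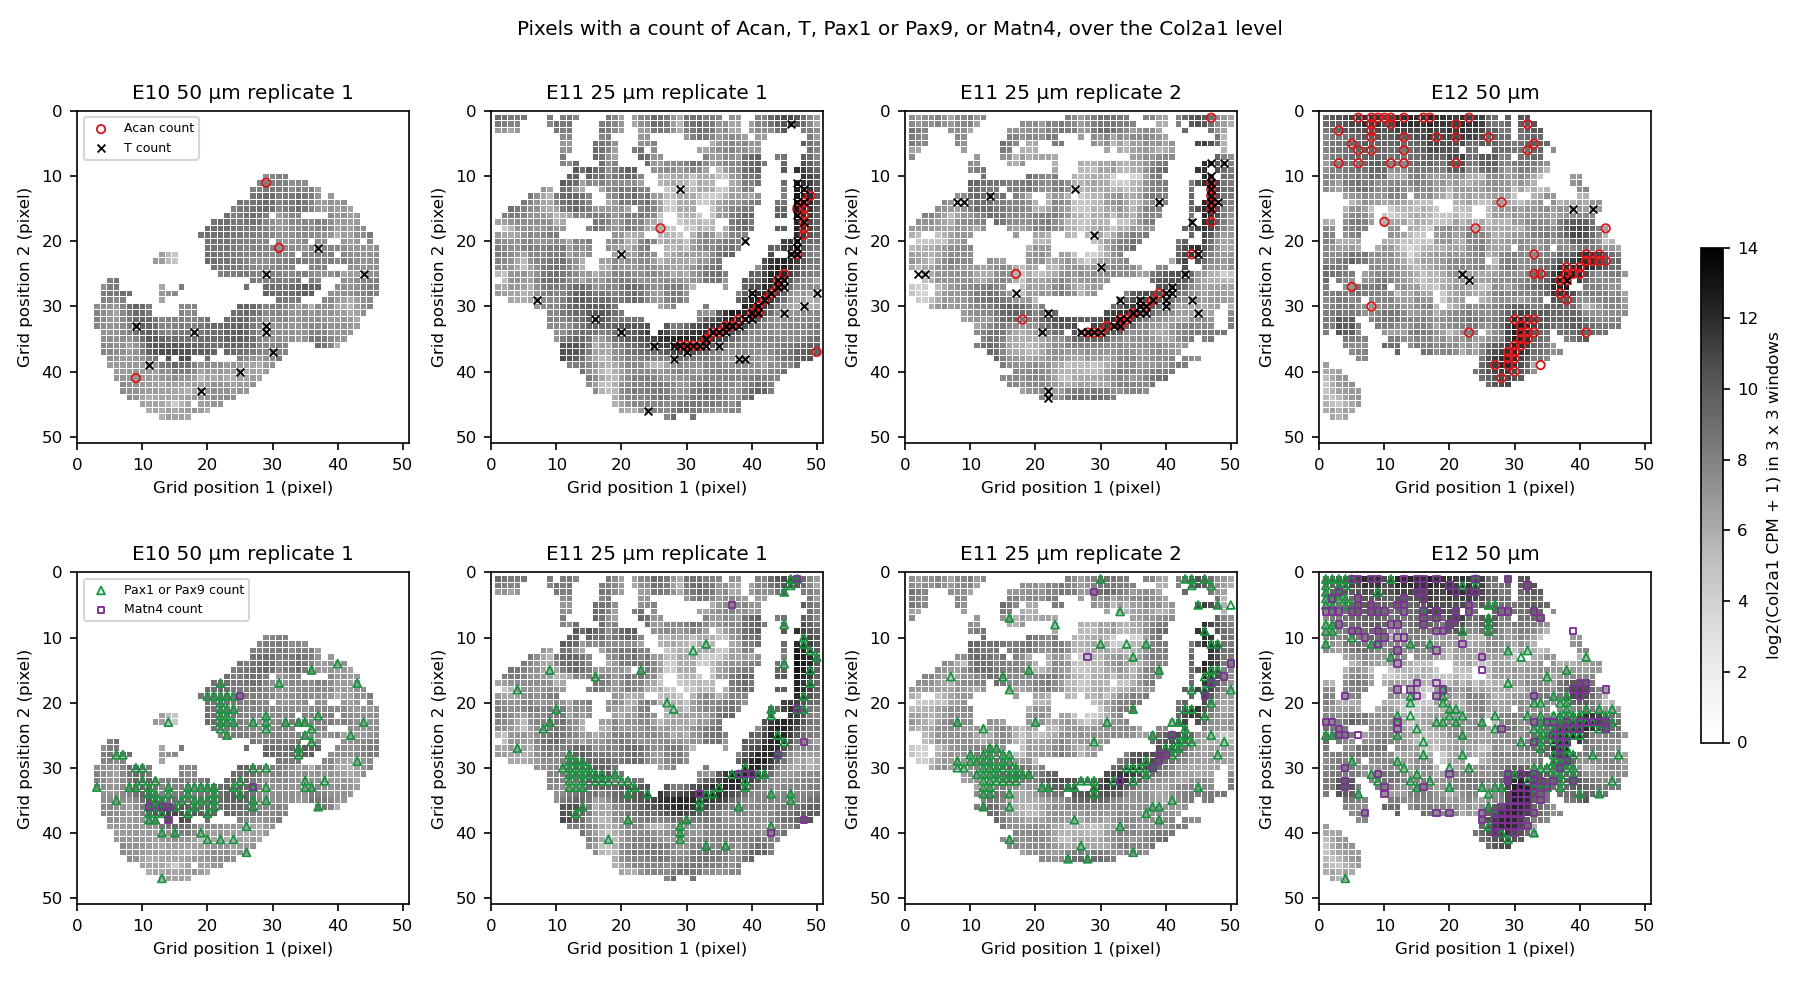
Grid maps of 4 sections (axes in pixels), with the Col2a1 level in 3 by 3 windows as log2(CPM + 1) in grey. The upper row marks pixels with an Acan count (red circles) or a T count (black crosses), and the lower row those with a Pax1 or Pax9 count (green triangles) or a Matn4 count (purple squares). Acan and T follow the same dark curve in both E11 25 µm sections, where Acan holds 29 and 21 pixels, and Acan lies in several blocks in E12, where it holds 77 and T has 6 counts in all.

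**Figure D4:**
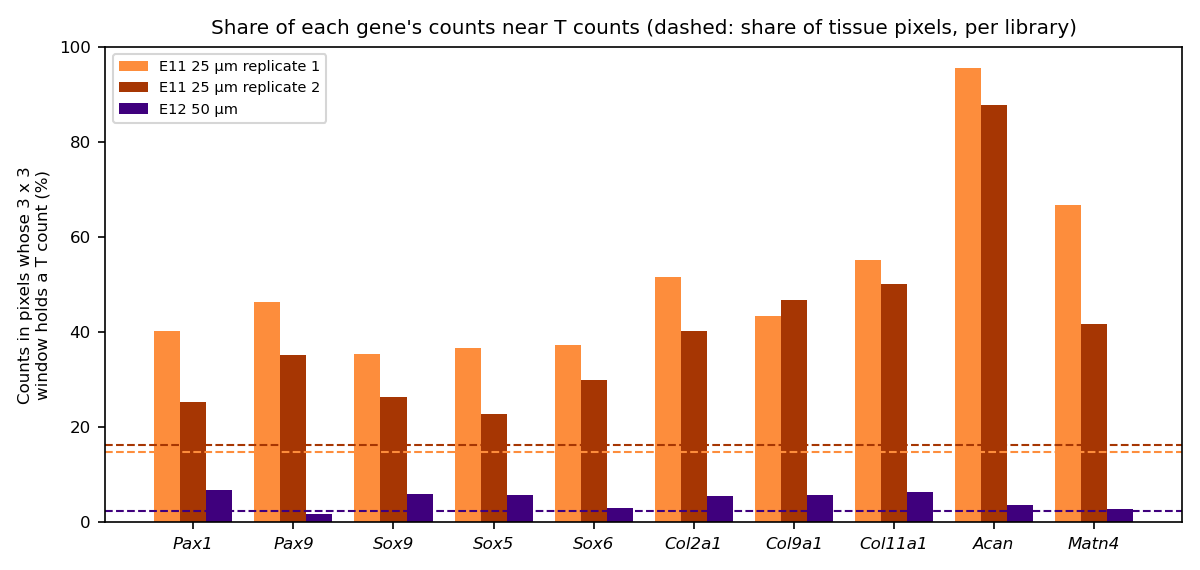
Share of each gene's counts, in percent, that lay in pixels whose 3 by 3 window held a T count, for the 2 E11 25 µm sections and the E12 section. Bars are libraries, and dashed lines give the share of tissue pixels with such a window in each library. Acan reaches 95.6% and 87.9% in the E11 sections against 14.7% and 16.3% of tissue, and 3.7% in E12.

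Each comparison was therefore also made without the 5% of tissue pixels richest in the notochord and floor plate list, an alternative added after seeing the data. In E11 25 µm these pixels held 66.7% and 81.8% of the Acan counts, against 95.6% and 87.9% near T. Some Acan counts near T thus stayed in, and the part of the notochord was not fully removed. The same 7 genes were then called in Col2a1-high pixels, with Acan at 4.58 (SE 0.54) and Sox9 at 1.09 (SE 0.13). This count has no share of all genes beside it and is not read as a result. The tests of Acan and Matn4 again rest on the filter set by the model. The E12 calls of Acan (5.81, SE 0.82) and Matn4 (7.14, SE 0.86) were also kept. The lower Acan level in 10 than in 25 µm pixels at E11 was not called without them (-2.34, SE 1.15, adjusted p = 0.483). Of the 4 genes whose Col2a1-high change was larger at E11 than at E10, only Sox6 was still called (1.78, SE 0.45, adjusted p = 0.0235). Sox5 stood at 1.15 (SE 0.51, adjusted p = 0.363), Sox9 at 0.69 (SE 0.26, adjusted p = 0.239) and Acan at 5.16 (SE 1.49, adjusted p = 0.0635).

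The sclerotome side was examined in the same way, with the pixels richest in Pax1 and Pax9 together. These 2 genes had 8 counts in all in E10 10 µm replicate 2 (where 50 pixels were picked) and 12 in E11 10 µm replicate 1. They had 47 in E10 25 µm, 58 in E11 10 µm replicate 2 and 102 to 588 in the other libraries. Where counts were so few, lone counts set the pixels. In the picked pixels, 5 of the 8 other genes were called higher, against 1.38% of 13567 tested genes. Acan and Matn4 are among these 5, but fell out when the low-count filter was set by pixel class. For these 2 genes the comparison with 1.38% is thus no support. Sox9 was higher by 0.77 (SE 0.10, adjusted p = 2.03e-08), Col2a1 by 1.23 (SE 0.28, adjusted p = 0.035) and Col9a1 by 1.30 (SE 0.30, adjusted p = 0.0353). Acan was higher by 2.01 (SE 0.49, adjusted p = 0.0044) and Matn4 by 2.21 (SE 0.53, adjusted p = 0.0042). Col11a1 narrowly missed the threshold (1.1, SE 0.29, adjusted p = 0.0682), and Sox5 (0.30, SE 0.16) and Sox6 (-0.03, SE 0.17) were not called. The Acan call was lost without the pixels rich in notochord genes (1.36, SE 0.62, adjusted p = 0.256), and the Col2a1 call was lost in 12 of 23 alternatives. DESeq2 called Sox9, Col2a1, Col9a1 and Col11a1 and gave Acan and Matn4 no adjusted p, and both were filtered out with the filter set by pixel class. Leaving out 1 library ended the Acan call for E11 25 µm replicate 2 (adjusted p up to 0.399 over all alternatives), the Matn4 call for replicate 1 (0.0715; without E12 it was filtered out) and the Col9a1 call for 7 libraries (0.0852), while Sox9 was called in all 23 alternatives. Per library, the Col2a1 ratio was 0.916 and 1.46 in E10 10 µm, 1.25 in E10 25 µm, 2.70, 2.76 and 2.62 in E10 50 µm, 1.09 and 6.25 in E11 10 µm, 4.31 and 5.70 in E11 25 µm and 3.63 in E12. It was highest in 3 of the 4 E11 libraries, and E11 10 µm replicate 1 lay among the low values of the 10 and 25 µm E10 sections. The ratios 1.46, 1.25, 1.09 and 6.25 come from the libraries with few Pax1 and Pax9 counts.

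In E10 alone, 3 genes were called higher in these pixels against 1.17% of 12188 tested: Sox9 (0.57, SE 0.11, adjusted p = 1.62e-04), Col9a1 (0.96, SE 0.21, adjusted p = 0.00299) and Col11a1 (0.65, SE 0.14, adjusted p = 0.00247). Of 9 tested sclerotome and somite genes that are not members, 5 were called higher over all libraries, Meox1 (2.20, SE 0.35), Twist1 (1.18, SE 0.17), Tcf15 (1.12, SE 0.32), Foxc2 (1.09, SE 0.22) and Foxc1 (1.06, SE 0.20), with a list median of 1.09 against -0.07 for all genes. Of 8 cartilage matrix genes, 5 were called higher, Epyc (2.34, SE 0.66) and Wwp2 (0.95, SE 0.15) among them. Tbx1 (1.83, SE 0.28), a factor of the pharyngeal region, and Foxf1 (1.88, SE 0.34), a factor of the gut mesenchyme, were among the 10 largest. Neb (1.53, SE 0.34), which encodes the muscle protein nebulin, was also there with the muscle genes Tnnc2 and Mylpf, beside Pax3, a dermomyotome factor, at -1.47 (SE 0.24). Adjusted p-values of these genes were 1.07e-07 to 0.048 over the 13567 genes tested (edgeR). Tcf15 lost its call without either E11 25 µm library or E10 50 µm replicate 1 or 2, and Neb without E12.

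Co-location across windows was also described for all 45 pairs by Pearson's r of log2(count per 10000 + 1), with no p, since pixels of a library share depth and tissue. Sox9 and Col2a1 went from r of 0.05 to 0.40 over the E10 libraries to 0.51 and 0.54 in E11 25 µm and 0.75 in E12. Sox6 and Col2a1 were at -0.13 to 0.06 at E10, 0.43 and 0.51 in E11 25 µm and 0.39 in E12. Col2a1 and Col11a1 were already as high as 0.65 in an E10 library, and stood at 0.64 and 0.68 in E11 25 µm and 0.78 in E12. Pax1 and Pax9 reached 0.72 in E12, while Pax1 and Acan stood at 0.14 and 0.26 in E11 25 µm and 0.18 in E12. Acan and Col11a1 were at 0.68 and 0.70 in E11 25 µm, and Acan and Matn4 at 0.27 and 0.30, against 0.50 in E12. The matrix genes thus went together more closely with each other than with Pax1 or Pax9 in E12, and in the E11 10 µm sections Sox9 with a collagen reached at most 0.14.

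**Figure D5:**
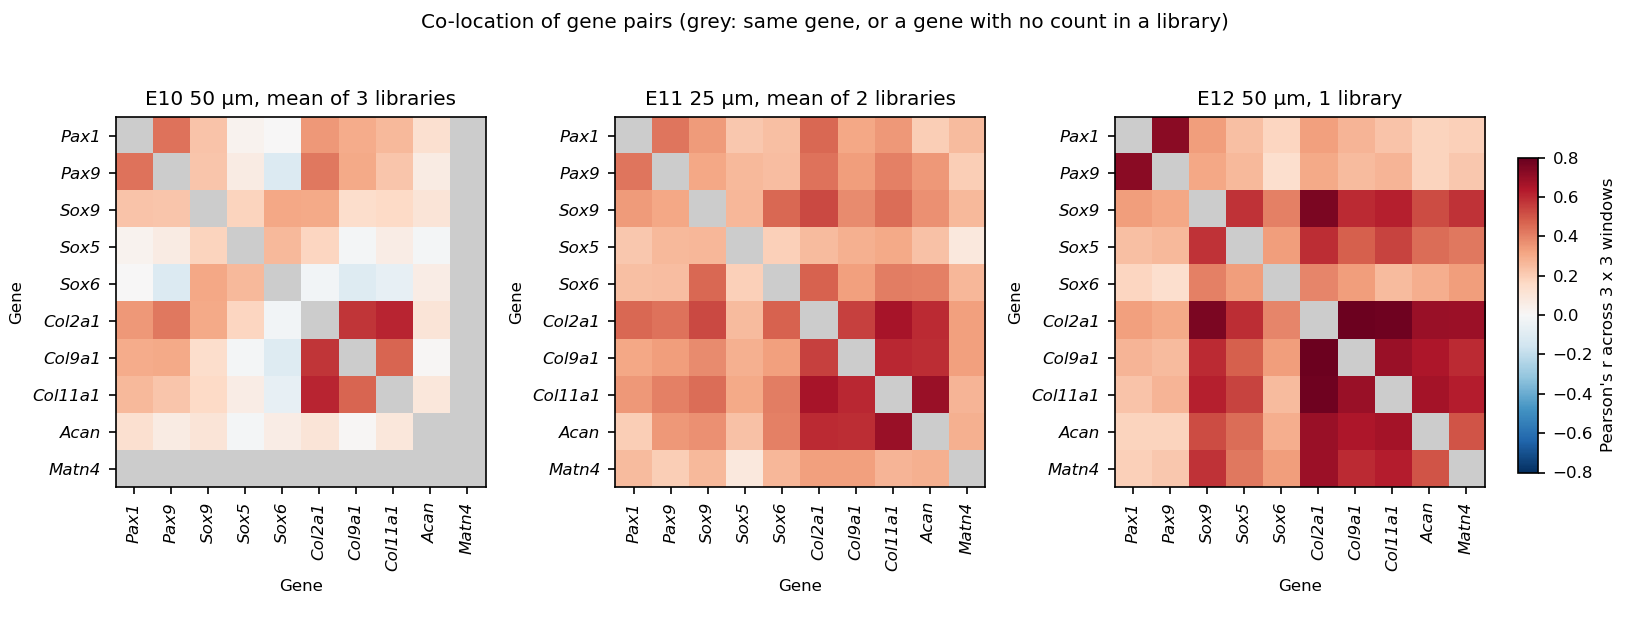
Pearson's r of each pair of genes across 3 by 3 windows of tissue pixels (colour, from -0.8 to 0.8) in E10 50 µm (mean of 3 libraries), E11 25 µm (mean of 2) and E12 (1 library). Grey marks a gene with itself or with no count in a library. Sox9 with Col2a1 darkens to 0.75 in E12, and Pax1 with Pax9 to 0.72.

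By the mean of this r over libraries, the genes most like Sox9 were Col2a1 (0.31), Wwp2 (0.25) and Marcks (0.24), over 11 libraries. Those most like Pax1, over 9 libraries, were Col2a1 (0.287), Wwp2 (0.24) and Cxcl12 (0.231), and those most like Pax9 were Col2a1 (0.24), Gpc3 (0.212) and Arhgap28 (0.208). Col2a1 itself was most like Fbn2 (0.395), Gpc3 (0.387) and Vcan (0.366), which encode a fibrillin, a glypican and the proteoglycan versican. For Col9a1 (0.414), Col11a1 (0.434), Acan (0.284, over 8 libraries) and Matn4 (0.288, over 7) the nearest gene was also Col2a1. The values were lower for Sox5, with Nnat and Col2a1 first (both 0.144), and for Sox6, with Cdh2 first (0.194). Means over so few counts per pixel are low for all genes.

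Detection was compared at equal depth by thinning each pixel to 500 counts and leaving out shallower ones. A Col2a1 count was then seen in 9.53% to 18.5% of pixels at E10, 4.37% to 16.8% at E11 and 17.8% in E12, against 24.2% to 85.6%, 8.96% to 49.1% and 52.1% unthinned. In the 5% of pixels richest in red cell genes, which should lack it, the thinned share was 0% to 18.3%, so a Col2a1 count in a lone pixel is not read as expression there. Matn4 was seen in 2.02% of thinned pixels in E12 and in 2.60% of the pixels richest in red cell genes, and Acan in 0.847% and 0%.

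None of the 22 antibodies targets a product of these genes. In Col2a1-high pixels, the share of the Ep-CAM tag, an epithelial surface protein, was 1.12 and 1.85 times that elsewhere in E10 50 µm replicates 1 and 3, 1.69 in E10 25 µm and 1.06 in E10 10 µm replicate 2. Ratios of the other 21 tags lay between 0.582 and 1.55 over the 4 sections, and the part of epithelium in the E10 values of Col2a1 was not tested.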

How the data were processed

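Transcripts were measured in 11 libraries of mouse embryo sections (groups by stage and pixel width from the labels) and antibody tags in 4. The authors deposited whole-number counts per gene symbol and pixel, with no normalization. The submitters' processing notes name CASAVA 1.8.2 and the human build GRCh38, although the labels give mouse. The aligner, annotation, use of strand and collapsing of molecules are not given in the sources used here, so positions come from GENCODE M21 (GRCm38) by symbol and promoters from RefSeq, and reads shared with overlapping genes cannot be told apart. Columns under an Ensembl identifier were added to their symbol. A gene without a column in a table was taken as 0.

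The members, lists and tests were chosen with earlier results of these data known. Counts were summed per library over tissue pixels, and pixels were never replicates. The sums were tested with edgeR 4.0.16 (limma 3.58.1, R 4.3.3; TMM, default filter by group, robust quasi-likelihood fit of 6 group means, 5 residual degrees of freedom), two-sided, adjusted by Benjamini-Hochberg at 0.05. SE is the size of the log2 fold change over the square root of F. For Col2a1-high pixels, and for those highest in Pax1 and Pax9, 22 sums were fitted with library as a block. Their filter was set by the model in place of by pixel class after ratios per library had been seen, but before any of these tests, and the filter by class is an added alternative. Named genes are the members, called genes of the 16 lists, and up to 10 higher and 5 lower by size of change with a mean of at least 10 CPM. The scripts were tested on simulated data with known changes. Libraries of 1 group differed beyond sampling noise (chi-square over degrees of freedom 24.6 to 70.0 in 6 pairs). Counting intervals are exact at 95% and, like floors of 3 counts, cover counting error only. Alternatives were DESeq2 1.42.0, other scaling, filters, tissue minimums, pixel shares and windows, and leaving out each library.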

Additional observations from a re-analysis of the deposited data

Results flagged for a closer look

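For 4 of the 9 genes tested, against 0.383% of all genes called higher, the difference between Col2a1-high and other tissue pixels was itself different at E11 and E10, by the test of E11 minus E10 in edgeR. The log2 difference was 1.93 for Sox6, 1.66 for Sox5, 0.97 for Sox9 and 5.62 for Acan, where the last is no measure of size since its E10 side rests on 1 count. Acan was filtered out with the filter set by pixel class, so the comparison with 0.383% is no support for it. Both E11 25 µm libraries showed ratios above those of all 6 E10 libraries for Sox6 (5.39 and 4.57 against 0.597 to 1.21), Sox5 (7.46 and 2.75 against 0.532 to 1.62) and Sox9 (4.75 and 3.66 against 1.1 to 2.20). In E11 10 µm the ratios were 0.829 and 1.29 for Sox6 (on 2 and 1 counts in Col2a1-high pixels), 0.791 and 1.51 for Sox5 and 0.621 and 3.75 for Sox9, so that only replicate 2 lay above all E10 libraries for Sox6 and Sox9, and neither for Sox5. Acan had 39 and 27 counts in Col2a1-high pixels of E11 25 µm and 1 over all E10 libraries.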

How the results depend on the processing

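Counts of called genes are given as members of the 10, then, where listed, all genes. A member count that stands alone has no share of all genes beside it and is not read as a result. DESeq2 called 3 members in the mean E11 contrast (1428 genes against 656), 1 at 10 µm (968 against 608), 0 at 25 µm (388 against 83), 0 between widths at E10 (413 against 20), 2 between widths at E11, 0 for the difference of stage changes (118 against 25), 7 in Col2a1-high pixels (453 against 802), 0 for its E11 minus E10 difference (12 against 124) and 4 in the Pax1 and Pax9 pixels (248 against 537), where it gave Acan and Matn4 no adjusted p. Under DESeq2 several liver genes reversed: in Col2a1-high pixels Alb stood at 1.18, Ahsg at 2.94, Fgb at 2.86 and Serpinf2 at 1.51, and in the Pax1 and Pax9 pixels Afp stood at 0.30, Alb at 1.38 and Fgb at 2.45. The cause was not tested.

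With no filter on low counts, 4 members were called in the mean E11 contrast (1988 genes), 4 at 10 µm (1835), 0 at 25 µm (671), 5 at E12 (1328 against 390), 0 between widths at E10 (731), 3 at E11 (870 against 378), 0 for the difference (223), 5 in Col2a1-high pixels (1230) and 6 in the Pax1 and Pax9 pixels (922). Without scaling factors the difference held 41 genes. Fitting only the 7 libraries of the mean E11 contrast gave 0 members and 281 genes.

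The call between widths at E11 went to 0 members with a tissue minimum of 0.2, without notochord-rich pixels and with a replicate block on the E11 numbers (297 genes). The labels link same-numbered E11 libraries by the number alone. Differences between replicates 1 and 2 at 10 and at 25 µm had r = 0.0766 over 18233 genes. Whether same-numbered libraries share an embryo cannot be told from this. The E11 minus E10 difference in Col2a1-high pixels went to 0 members with 2.5% of pixels (71 genes), 1 with every pixel, 1 without notochord-rich pixels and 2 with the filter by pixel class (46 genes). With the window reduced to the pixel it gave 4 (80 genes). E10 alone gave 2 members in Col2a1-high pixels. In the Pax1 and Pax9 pixels, the count was 3 with a tissue minimum of 0.2, 3 by pixel class (353 genes), 3 in E10 alone (292) and 4 by the pixel alone (320). Pixel class, E10 alone and leaving out notochord-rich pixels were chosen after seeing the data.

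Leaving out 1 library at a time gave 0 to 4 members in the mean E11 contrast (144 to 1465 genes), 0 to 4 at 10 µm (190 to 1258), 0 at 25 µm (17 to 218), 2 to 3 at E12 (98 to 969), 0 between widths at E10 (0 to 164), 0 to 2 at E11 (33 to 463) and 0 for the difference (2 to 38). It gave 4 to 7 members in Col2a1-high pixels (631 to 984), 1 to 4 for E11 minus E10 (49 to 180) and 2 to 6 in the Pax1 and Pax9 pixels (364 to 568). Without E11 10 µm replicate 2, Pax1 reversed to -1.18 in the mean E11 contrast (range up to 6.40) and to -6.22 at 10 µm (up to 8.87), and Col2a1 at 10 µm went from -0.67 to 0.0497 (range from -2.13). The lone libraries of E10 25 µm and E12 could not be left out of contrasts that need them.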
